A study of Rattus norvegicus with 21 samples.

Results

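The 10 genes of the core circadian clock, Bmal1, Clock, Npas2, Nr1d1, Nr1d2, Per1, Per2, Per3, Cry1 and Cry2, were followed in the liver of rats that took an organophosphate ester, tert-butylphenyl diphenyl phosphate (BPDP). Every probe set whose platform gene symbol is one of these names was taken, which gave 18 of the 31042 probe sets tested, for 10 of 14217 genes. Clock has 4 probe sets, Nr1d2 has 3, Per2, Per3 and Cry2 have 2 each, and the other genes have 1. The rats, male and of the Harlan Sprague-Dawley stock, received corn oil alone or BPDP in corn oil by oral gavage on 4 consecutive days, and the liver was taken on day 5. Arrays were available from 6 vehicle livers and from 3 livers at each of 64.6, 129.2, 258.1, 516.2 and 1032.5 mg/kg, 21 arrays in all, the lowest dose being 0.169 mmol/kg and the highest 2.7 mmol/kg. The labels list 6 vehicle arrays although their protocol counts 5 vehicle animals, and no pair of arrays had identical values. Neither the age of the rats nor the hour at which livers were collected is given in the labels. All groups shared the stock, the sex, the corn oil vehicle and the 4 gavages, and no group left ungavaged was included.

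In the core clock, the transcription factors BMAL1 and CLOCK, or NPAS2 in place of CLOCK, bind E-boxes as a pair and switch on the Per, Cry and Nr1d genes. PER and CRY proteins return to the nucleus and repress that pair, while the nuclear receptors REV-ERB alpha and REV-ERB beta, encoded by Nr1d1 and Nr1d2, repress Bmal1 and Npas2 through ROR response elements (ROREs). The loop turns about once a day, so in liver most of these transcripts have a peak and a trough at set hours, with Bmal1 and Npas2 peaking when Nr1d1 is low.

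Because E-boxes and ROREs are the elements through which the members regulate each other, the 250 bases before the annotated start of each gene were searched for them on both strands, in RefSeq sequence of rat assembly GRCr8. The motifs searched were the E-box CACGTG, the variant E-box CACGTT, the D-box as TTATGTAA or TTACGTAA, the cAMP response element TGACGTCA, and the RORE by its consensus. RefSeq windows were matched for 9 of the 10 genes, 11 windows in all, and Cry1 had none. In 5 of the 11 windows at least 1 motif was found, and 4 of these windows are shown because they hold the RORE of Bmal1 and the variant E-boxes or D-box of 3 repressor genes. The sequences run 5′ to 3′ on the strand of the gene, end at the base before the start, and carry the matches in capitals.
Bmal1, chr1:176766078-176766327, plus strand: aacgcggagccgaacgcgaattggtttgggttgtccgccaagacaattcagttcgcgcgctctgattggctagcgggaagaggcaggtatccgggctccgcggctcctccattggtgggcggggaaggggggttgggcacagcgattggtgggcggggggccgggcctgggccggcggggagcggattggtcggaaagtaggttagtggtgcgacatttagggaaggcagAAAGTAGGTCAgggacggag
Nr1d1, chr10:84231813-84232062, minus strand: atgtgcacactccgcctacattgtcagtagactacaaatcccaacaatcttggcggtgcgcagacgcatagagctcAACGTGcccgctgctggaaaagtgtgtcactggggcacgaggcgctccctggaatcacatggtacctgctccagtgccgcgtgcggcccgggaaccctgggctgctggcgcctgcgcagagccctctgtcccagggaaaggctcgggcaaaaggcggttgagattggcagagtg
Per2, chr9:99496994-99497243, minus strand: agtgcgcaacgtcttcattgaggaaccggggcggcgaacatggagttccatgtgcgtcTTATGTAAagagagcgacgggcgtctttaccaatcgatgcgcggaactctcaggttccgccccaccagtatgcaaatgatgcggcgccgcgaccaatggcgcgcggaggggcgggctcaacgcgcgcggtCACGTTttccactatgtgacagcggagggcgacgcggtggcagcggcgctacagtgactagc
Cry2, chr3:98860438-98860687, minus strand: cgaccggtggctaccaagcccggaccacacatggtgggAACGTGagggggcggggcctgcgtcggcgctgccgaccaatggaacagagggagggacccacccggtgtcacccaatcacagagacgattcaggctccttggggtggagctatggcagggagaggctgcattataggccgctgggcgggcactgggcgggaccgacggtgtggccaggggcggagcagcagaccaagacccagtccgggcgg

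The capitals mark a RORE at positions -20 to -10 from the start of Bmal1. In the first window of Nr1d1 they mark a variant E-box read on the opposite strand. In Per2 they mark the D-box TTATGTAA followed by a variant E-box at positions -62 to -57, and in Cry2 a variant E-box on the opposite strand. A second Nr1d1 window, at chr10:84229455-84229704 before a start inside the gene, holds an E-box CACGTG. None of the 5 kinds of motif was found in the windows of Clock, Npas2, Nr1d2, Per1 or Per3, which says only that these letters are not in those bases. Of all 33469 RefSeq windows of this length, 5.59% hold the E-box, 4.07% the variant E-box, 0.932% the D-box, 1.59% the cAMP response element and 0.317% the RORE. A match describes the sequence and is not evidence of binding.

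Signals are given as log2 values computed by the robust multi-array average (RMA), so a difference of 1 is a doubling. A signal belongs to its probe set, and levels of different genes are not set against each other. Where a gene has several probe sets, the one with the highest mean over all arrays represents it, and the others are described beside it. Every dose was compared with the vehicle by a single limma fit over the 21 arrays, and a change is called where the Benjamini-Hochberg adjusted p over all probe sets is under 0.05. The arrays were alike in scale, with median log2 signals of 6.30 to 6.39 and pairwise correlations of 0.984 to 0.995, and all 9 measured hepatocyte markers lay above the upper quartile of every array. Each array is taken as 1 rat, and p-values measure the spread between these arrays only.

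Of the 10 genes, 6 were called at 64.6 mg/kg, 4 of them higher and 2 lower, where 0.135% of all probe sets were called higher and 0.113% lower. At 129.2 mg/kg 3 genes were called higher and 3 lower, beside 0.222% and 0.126% of all probe sets. At 258.1 mg/kg the count was 5 higher and 3 lower, beside 1.36% and 0.992%. At 516.2 mg/kg it was 4 higher and 3 lower, beside 4.02% and 2.0%, and at 1032.5 mg/kg 5 higher and 3 lower, beside 3.30% and 2.85%. The median absolute log2 change of the 10 genes, each by its representative probe set, was 1.18 at 64.6 mg/kg and 1.33 at 1032.5 mg/kg. Over all 18 clock probe sets, dim ones included, it was 0.68 and 0.53, whereas that of all probe sets was 0.08 and 0.10. The share of all probe sets called thus grew with the dose, while the share of clock genes called was already above that background at the lowest dose. The labels give no hour of collection for any group, so a difference by dose and a difference by collection hour cannot be told apart.

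**Figure D1:**
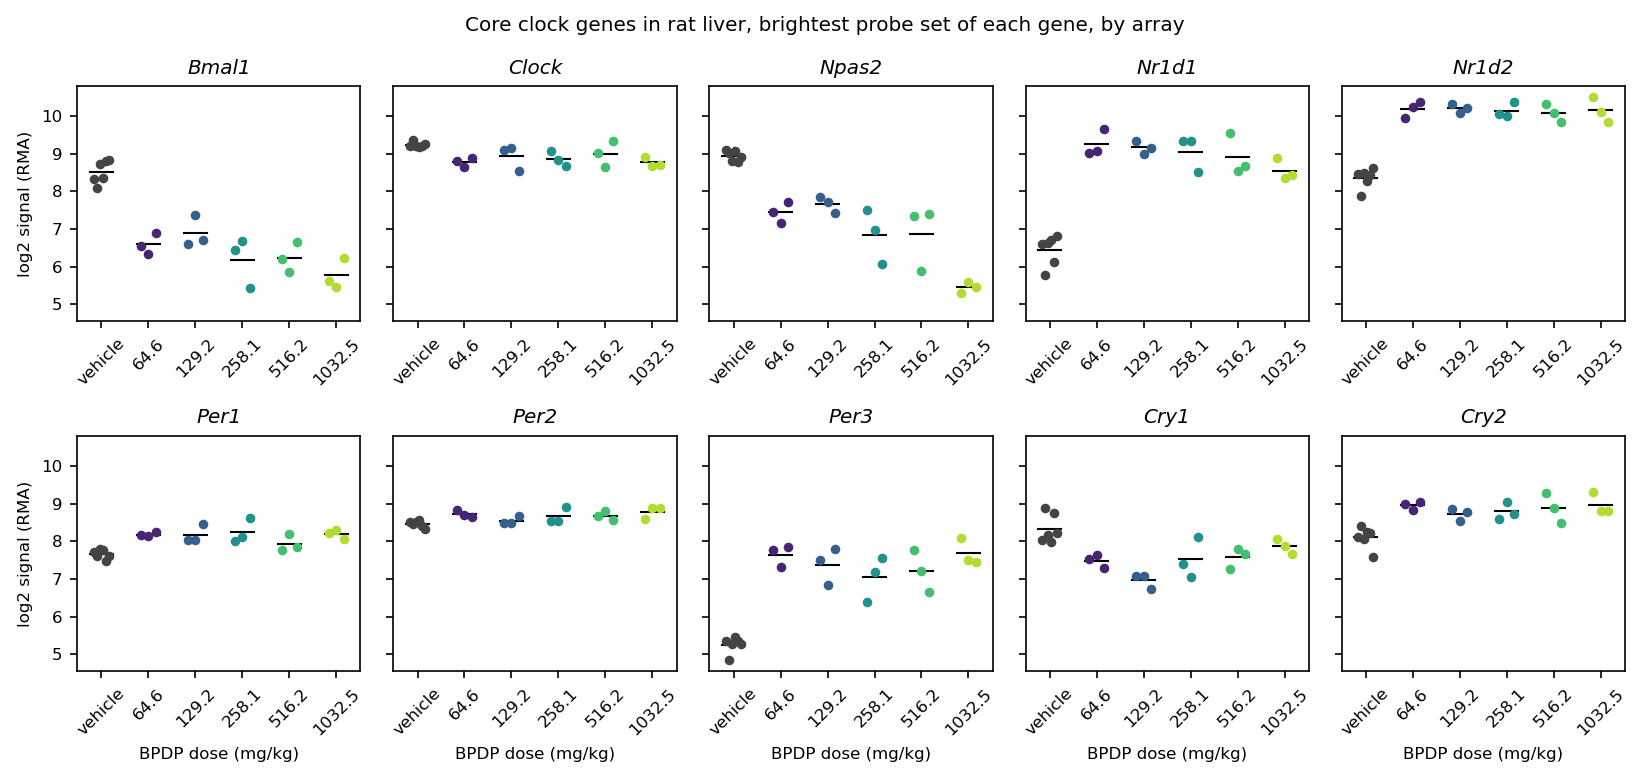
Log2 signal of the representative probe set of each of the 10 clock genes (vertical axis) in the 6 vehicle arrays and the 3 arrays at each BPDP dose in mg/kg (horizontal axis). Points are arrays and bars are group means. Bmal1 and Npas2 lie lower in all 15 dosed arrays than in any vehicle array, and Nr1d1, Nr1d2, Per3 and Cry2 lie higher.

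The activators fell. Bmal1 encodes the obligate partner of both CLOCK and NPAS2, and in the 6 vehicle arrays its log2 signal (probe set 1370510_a_at) ran from 8.08 to 8.84 with a median of 8.55. The 3 arrays read 6.56, 6.34 and 6.89 at 64.6 mg/kg, 6.61, 7.36 and 6.71 at 129.2 mg/kg, and 6.45, 6.67 and 5.44 at 258.1 mg/kg. They read 6.22, 5.87 and 6.65 at 516.2 mg/kg and 5.63, 5.46 and 6.22 at 1032.5 mg/kg. The highest dosed array, replicate 2 at 129.2 mg/kg, was still below the lowest vehicle array, so the groups did not overlap at any dose. Bmal1 was 3.81-fold lower at 64.6 mg/kg (log2 change -1.93, SE 0.25, limma adjusted p = 0.000642), 3.09-fold lower at 129.2, 5.05-fold lower at 258.1, 4.86-fold lower at 516.2 and 6.74-fold lower at 1032.5 mg/kg (log2 change -2.75, SE 0.25, adjusted p = 9.63e-07). All 5 calls held in each of the 30 alternatives run at each dose.

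Npas2 encodes the CLOCK paralogue that can take its place beside BMAL1. On probe set 1383439_at vehicle arrays ran from 8.77 to 9.11 with a median of 8.97. The dosed arrays read 7.47, 7.15 and 7.72 at 64.6 mg/kg, 7.87, 7.73 and 7.42 at 129.2 mg/kg, and 7.51, 6.97 and 6.07 at 258.1 mg/kg. At 516.2 mg/kg they read 7.36, 5.88 and 7.40, and at 1032.5 mg/kg 5.31, 5.59 and 5.46. No dosed array reached the vehicle range, and the 3 arrays of the top dose were below the other 12. These 3 lay little above the lower quartile of the arrays, which was 4.95 to 5.10. Replicate 2 at 516.2 mg/kg and replicate 3 at 258.1 mg/kg lay well below the other arrays of their doses. The fall was 2.84-fold at 64.6 mg/kg (log2 change -1.51, SE 0.28, limma adjusted p = 0.0167), 4.30-fold at 258.1, 4.21-fold at 516.2 and 11.3-fold at 1032.5 mg/kg (log2 change -3.50, SE 0.28, adjusted p = 1.84e-07). At 129.2 mg/kg the fall of 2.43-fold was at the edge of the threshold (adjusted p = 0.0481) and was not called in 18 of 30 alternatives. The call at 64.6 mg/kg was lost without replicate 1 (adjusted p = 0.0994) or replicate 2 (0.133) of that dose.

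Clock, whose protein forms the activating pair with BMAL1, moved much less. On the representative probe set, 1390199_at, vehicle arrays lay between 9.19 and 9.36 with a median of 9.20. The dosed arrays read 8.81, 8.66 and 8.90 at 64.6 mg/kg, 9.11, 9.16 and 8.55 at 129.2 mg/kg, 9.09, 8.84 and 8.68 at 258.1 mg/kg, 9.03, 8.64 and 9.34 at 516.2 mg/kg, and 8.93, 8.68 and 8.70 at 1032.5 mg/kg. All but 1 of the 15 dosed arrays lay below the vehicle range, the exception being replicate 3 at 516.2 mg/kg. The change was called at 1032.5 mg/kg alone (1.38-fold lower, log2 change -0.47, SE 0.14, limma adjusted p = 0.0475), and 16 of 30 alternatives lost that call. A second probe set, 1389456_at, ran from 8.37 to 8.73 in vehicle arrays and from 7.84 to 8.29 in the dosed ones, with no overlap, and was called at every dose except 129.2 mg/kg, 1.45-fold lower at 1032.5 mg/kg (adjusted p = 0.00133). Its call at 64.6 mg/kg (adjusted p = 0.0368) was lost in 10 of 29 alternatives. The 2 remaining Clock probe sets, 1380098_at and 1369168_a_at, were dim, with group means of 5.16 to 5.43, and were called at no dose.

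The REV-ERB genes rose, and at the lowest dose Nr1d1 had the largest log2 change of the 18 probe sets. Nr1d1 encodes REV-ERB alpha, the heme-binding repressor of Bmal1. On probe set 1370816_at its vehicle arrays ran from 5.77 to 6.81 with a median of 6.62. Dosed arrays read 9.04, 9.09 and 9.65 at 64.6 mg/kg, 9.35, 9.0 and 9.17 at 129.2 mg/kg, and 9.34, 9.34 and 8.51 at 258.1 mg/kg. They read 9.55, 8.54 and 8.69 at 516.2 mg/kg and 8.88, 8.35 and 8.44 at 1032.5 mg/kg. Every dosed array stood above the highest vehicle array, and vehicle replicates 2 and 5 were the lowest of all. Nr1d1 stood 7.02-fold above vehicle at 64.6 mg/kg (log2 change 2.81, SE 0.25, limma adjusted p = 2.74e-06), 6.62-fold at 129.2, 6.13-fold at 258.1, 5.59-fold at 516.2 and 4.32-fold at 1032.5 mg/kg (log2 change 2.11, SE 0.25, adjusted p = 1.44e-05).

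Nr1d2 encodes REV-ERB beta, which shares targets with REV-ERB alpha. On the representative probe set, 1390430_at, vehicle arrays ran from 7.88 to 8.62 with a median of 8.46. Dosed arrays read 9.96, 10.26 and 10.38 at 64.6 mg/kg, 10.33, 10.08 and 10.22 at 129.2 mg/kg, 10.06, 10.02 and 10.37 at 258.1 mg/kg, 10.34, 10.08 and 9.85 at 516.2 mg/kg, and 10.52, 10.12 and 9.86 at 1032.5 mg/kg. The dosed groups lay at nearly the same height, all above the vehicle range. The rise was between 3.31-fold at 516.2 mg/kg and 3.61-fold at 129.2 mg/kg, with limma adjusted p-values from 4.85e-07 to 2.12e-06. Probe set 1370541_at gave the same picture, with 6.90 to 7.61 in vehicle and 8.34 to 9.41 in dosed arrays and a rise of 2.66-fold to 3.42-fold. The third, 1370540_at, had means below the lower quartile of the arrays in every group and was not called.

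The Period genes, whose proteins carry the repression of BMAL1 and its partner, rose unequally. Per3, the member of the family with the mildest role in keeping the rhythm, was called at every dose on its representative probe set, 1378745_at. Its vehicle arrays ran from 4.83 to 5.46 with a median of 5.31, little above the lower quartile of the arrays, which was 4.95 to 5.10. Dosed arrays read 7.78, 7.31 and 7.86 at 64.6 mg/kg, 7.50, 6.85 and 7.80 at 129.2 mg/kg, 6.38, 7.19 and 7.56 at 258.1 mg/kg, 7.76, 7.20 and 6.66 at 516.2 mg/kg, and 8.08, 7.51 and 7.45 at 1032.5 mg/kg. All 15 were above all 6 vehicle arrays, and replicate 1 at 258.1 mg/kg was the lowest of them. Per3 was 5.25-fold higher at 64.6 mg/kg (log2 change 2.39, SE 0.25, limma adjusted p = 3.76e-05), 3.46-fold at 258.1 mg/kg and 5.36-fold at 1032.5 mg/kg (adjusted p = 4.16e-06). The other Per3 probe set, 1388239_at, lay near the lower quartile in every group and was not called.

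Per2 gave a different answer on each of its probe sets. The brighter, 1378560_at, ran from 8.32 to 8.58 in vehicle arrays with a median of 8.48. Its dosed arrays read 8.82, 8.70 and 8.64 at 64.6 mg/kg, 8.49, 8.49 and 8.68 at 129.2 mg/kg, 8.55, 8.55 and 8.92 at 258.1 mg/kg, 8.67, 8.81 and 8.56 at 516.2 mg/kg, and 8.58, 8.90 and 8.88 at 1032.5 mg/kg. These overlap the vehicle range at all doses except 64.6 and 1032.5 mg/kg, and no dose was called (1.25-fold at 1032.5 mg/kg, limma adjusted p = 0.0551). Probe set 1368303_at read 7.59, 7.71, 7.38, 6.50, 6.48 and 6.21 in the 6 vehicle arrays, so replicates 1 to 3 lay apart from replicates 4 to 6. Its dosed arrays read 9.26, 9.47 and 8.49 at 64.6 mg/kg, 8.35, 8.02 and 8.47 at 129.2 mg/kg, 8.29, 8.05 and 9.71 at 258.1 mg/kg, 8.88, 9.10 and 8.91 at 516.2 mg/kg, and 9.63, 9.10 and 8.90 at 1032.5 mg/kg. All of these were above every vehicle array, in spite of the wide vehicle spread. By this probe set Per2 was 4.28-fold higher at 64.6 mg/kg (adjusted p = 0.00601), 2.47-fold at 129.2 mg/kg without passing (0.162), and 4.72-fold higher at 1032.5 mg/kg (0.000338). Its call at 258.1 mg/kg was lost without replicate 3 of that dose (adjusted p = 0.128), and that at 64.6 mg/kg without replicate 1 (0.0617) or 2 (0.0816). With the mean of both probe sets in place of the brighter, Per2 was called at 64.6, 258.1, 516.2 and 1032.5 mg/kg.

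Per1, the Period gene that glucocorticoids and cAMP also switch on, ran on probe set 1374855_at from 7.48 to 7.80 in vehicle arrays with a median of 7.67. Dosed arrays read 8.16, 8.13 and 8.24 at 64.6 mg/kg, 8.04, 8.02 and 8.45 at 129.2 mg/kg, 8.0, 8.13 and 8.61 at 258.1 mg/kg, 7.77, 8.19 and 7.84 at 516.2 mg/kg, and 8.22, 8.31 and 8.06 at 1032.5 mg/kg. Every dosed array except replicate 1 at 516.2 mg/kg exceeded the vehicle range. It was called at 258.1 mg/kg (1.5-fold higher, log2 change 0.58, SE 0.13, limma adjusted p = 0.0159) and at 1032.5 mg/kg (1.45-fold, adjusted p = 0.0121). The first of these calls was lost without replicate 3 of its dose (adjusted p = 0.172) and the second without replicate 1 (0.0534) or replicate 2 (0.0827). Over all dosed arrays Per1 rose 1.39-fold (log2 change 0.48, SE 0.09, adjusted p = 0.00142).

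**Figure D2:**
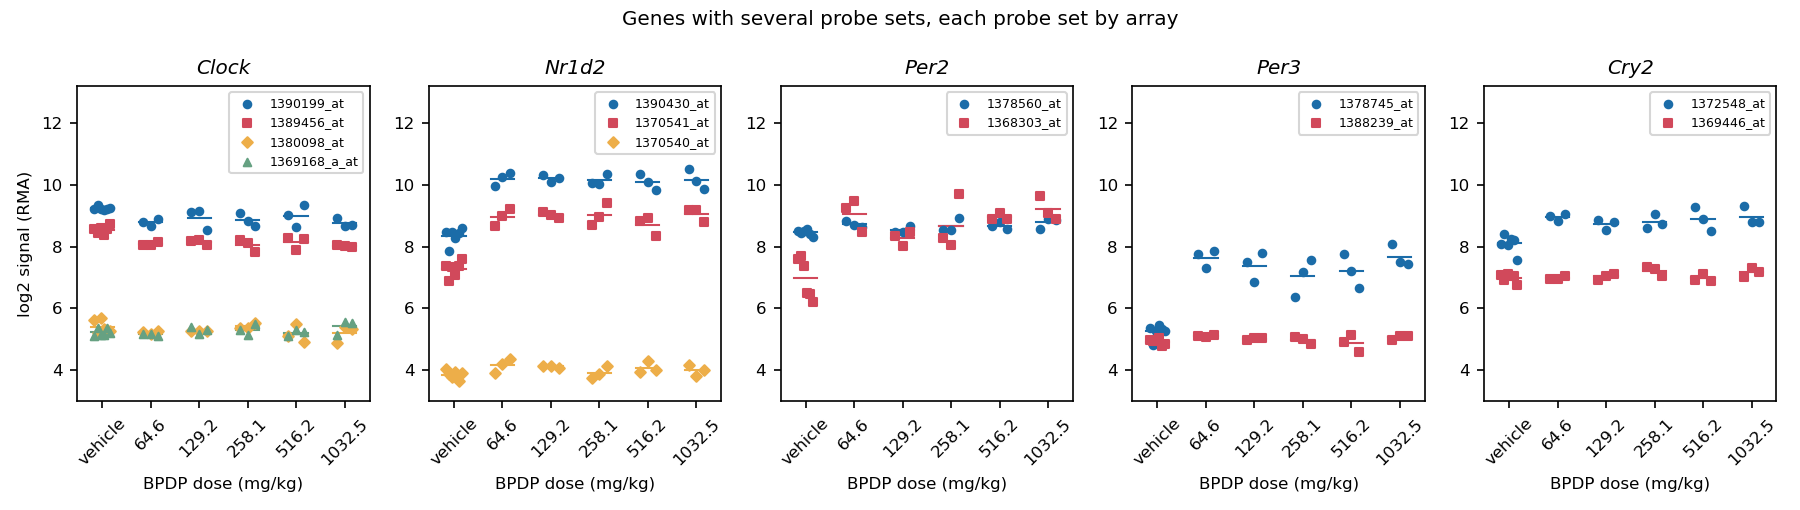
Log2 signal (vertical axis) of each probe set of the 5 genes with several probe sets, by array and BPDP dose in mg/kg (horizontal axis), with bars at group means. Per2 probe set 1368303_at (squares) rose from 6.21 to 7.71 in vehicle arrays to 8.02 to 9.71 in dosed ones, while 1378560_at (circles) stayed between 8.32 and 8.92 over all 21 arrays.

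The cryptochrome genes, which encode the repressors that bind BMAL1 and its partner directly, went opposite ways. Cry1, the stronger repressor and the later of the pair to peak, ran on probe set 1392640_at from 7.97 to 8.88 in vehicle arrays with a median of 8.20. Dosed arrays read 7.53, 7.63 and 7.28 at 64.6 mg/kg, 7.08, 7.09 and 6.73 at 129.2 mg/kg, 7.39, 7.06 and 8.12 at 258.1 mg/kg, 7.27, 7.78 and 7.67 at 516.2 mg/kg, and 8.06, 7.86 and 7.67 at 1032.5 mg/kg. Replicate 3 at 258.1 mg/kg and replicate 1 at 1032.5 mg/kg lay within the vehicle range and the other 13 dosed arrays below it. Cry1 was lowest at 129.2 mg/kg (2.59-fold lower, log2 change -1.37, SE 0.21, limma adjusted p = 0.00350). It was also called at 258.1 mg/kg (1.76-fold lower, adjusted p = 0.0448) and at 516.2 mg/kg (1.70-fold lower, adjusted p = 0.0366), calls that 16 and 7 of 30 alternatives lost. The changes at 64.6 mg/kg (log2 -0.86, adjusted p = 0.115) and at 1032.5 mg/kg (log2 -0.47, adjusted p = 0.231) did not pass.

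Cry2, the cryptochrome gene with the weaker hold on the rhythm, was measured by a responding and a flat probe set. On 1372548_at vehicle arrays ran from 7.58 to 8.42 with a median of 8.16. Dosed arrays read 9.0, 8.83 and 9.05 at 64.6 mg/kg, 8.87, 8.55 and 8.79 at 129.2 mg/kg, 8.60, 9.05 and 8.73 at 258.1 mg/kg, 9.29, 8.89 and 8.49 at 516.2 mg/kg, and 9.30, 8.81 and 8.80 at 1032.5 mg/kg. All 15 exceeded all 6 vehicle arrays, though replicate 3 at 516.2 mg/kg did so narrowly. Cry2 was 1.80-fold higher at 64.6 mg/kg (limma adjusted p = 0.0361) and 1.82-fold at 1032.5 mg/kg (log2 change 0.86, SE 0.17, adjusted p = 0.00328), and the 1.55-fold difference at 129.2 mg/kg did not pass (adjusted p = 0.174). The calls at 64.6 and 258.1 mg/kg were lost in 8 and 6 of 30 alternatives, and that at 516.2 mg/kg without replicate 1 of its dose (adjusted p = 0.113). Probe set 1369446_at ran from 6.75 to 7.12 in vehicle and from 6.90 to 7.34 in dosed arrays and was not called at any dose.

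**Figure D3:**
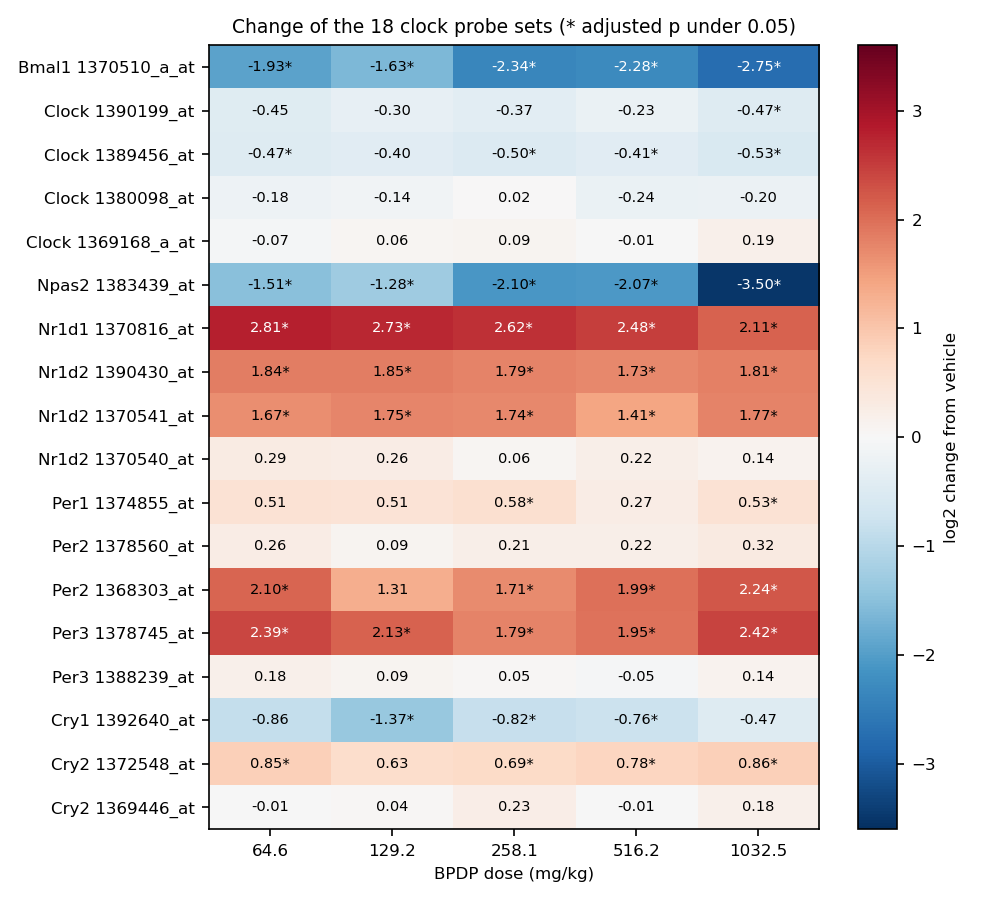
Log2 change from vehicle (colour and printed value) of the 18 clock probe sets (rows) at each BPDP dose in mg/kg (columns), from the limma fit over 21 arrays, with an asterisk where the adjusted p is under 0.05. Bmal1 and Npas2 are called lower and Nr1d1, Nr1d2 and Per3 higher at all 5 doses.

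Taken over all doses, with the 15 dosed arrays set against the 6 vehicle arrays, 5 genes were called higher and 4 lower, where 3.37% of all probe sets were called higher and 2.33% lower. Per2 on its brighter probe set was the gene not called (1.16-fold higher, limma adjusted p = 0.0575), and it passed in 8 of the alternatives. All 15 dosed arrays lay above all 6 vehicle arrays for 6 of the 18 probe sets, those of Nr1d1, Nr1d2 (2 probe sets), Per2, Per3 and Cry2, beside 0.319% of all probe sets. They lay below for 3 probe sets, of Bmal1, Npas2 and Clock, beside 0.213%.

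Among the dosed arrays themselves Npas2 was the clock gene that changed with dose. A slope on the dose step (1 to 5) over the 15 dosed arrays was called for Npas2 alone, at -0.48 log2 units per step (SE 0.10, limma adjusted p = 0.0125), where 0.818% of all probe sets had a falling and 1.46% a rising slope. Npas2 was also 3.99-fold lower at 1032.5 than at 64.6 mg/kg (log2 change -1.99, SE 0.32, adjusted p = 0.00192), beside 0.619% of probe sets lower and 0.857% higher in that comparison. A moderated F over the 5 doses, added after the data were seen, passed for Npas2 alone among the 18 probe sets (adjusted p = 0.0259, 0.850% of all probe sets). Bmal1 leaned the same way (slope -0.23, SE 0.07, adjusted p = 0.104), as did Nr1d1 (-0.16, SE 0.06, adjusted p = 0.148), and Cry1 the other way (0.14, SE 0.06, adjusted p = 0.257), none of which passed. Nr1d1 passed once replicate 1 at 516.2 mg/kg was left out (adjusted p = 0.0439). Between neighbouring doses no clock gene was called by limma, and neither was any other probe set (0% in all 4 comparisons). At an unadjusted p under 0.05 there was 1 clock gene between 64.6 and 129.2, 3 between 129.2 and 258.1, 1 between 258.1 and 516.2, and 1 between 516.2 and 1032.5 mg/kg. The last was Npas2 (log2 change -1.43, SE 0.32, adjusted p = 0.222), which was called when replicate 2 at 516.2 mg/kg was left out (log2 change -1.93, adjusted p = 0.00711).

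Ranked by their means, the groups were then compared with the next in rank. For Npas2 the vehicle mean of 8.95 ± 0.13 (SD, n = 6) and the top dose mean of 5.45 ± 0.14 (n = 3) each stood apart from the neighbour in rank, and each of the 4 doses between overlapped the next in rank, though 129.2 and 516.2 mg/kg did not overlap each other. For Bmal1 the vehicle mean of 8.52 ± 0.31 stood apart from 6.89 ± 0.41 at 129.2 mg/kg, the next in rank, and each dosed group overlapped the next in rank down to 5.77 ± 0.40 at 1032.5 mg/kg. The top dose itself did not overlap 64.6 or 129.2 mg/kg. For Nr1d1 the vehicle mean of 6.44 ± 0.41 stood apart from 8.56 ± 0.28 at 1032.5 mg/kg, and each dosed group overlapped the next in rank up to 9.26 ± 0.34 at 64.6 mg/kg. Here too the top dose did not overlap 64.6 or 129.2 mg/kg. For Cry1 the group that stood apart from its neighbour in rank was 129.2 mg/kg, at 6.97 ± 0.20, below 7.48 ± 0.18 at 64.6 mg/kg. From there each group overlapped the next in rank up to the vehicle at 8.34 ± 0.38. The arrays at 129.2 mg/kg (6.73 to 7.09) did overlap those at 258.1 mg/kg (7.06 to 8.12).

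Paralogues were compared through their difference within each array, since a change in one member does not by itself show that it differs from the other. In all 6 pairs the difference moved between vehicle and dosed arrays, by exact two-sided permutation tests over the 54264 splits with Benjamini-Hochberg adjustment over the 6 pairs. Npas2 fell by 1.73 log2 units relative to Clock (adjusted p = 0.000249), with no overlap of the groups. Cry1 fell by 1.62 relative to the responding Cry2 probe set (adjusted p = 3.69e-05), also without overlap. That p comes from the smallest that these permutations can give. The other Cry2 probe set changed by 0.09 log2 units over all dosed arrays (limma adjusted p = 0.575). With the mean of both Cry2 probe sets the difference from Cry1 was still called. Nr1d1 rose by 0.75 more than Nr1d2 (adjusted p = 0.000597). Per3 rose by 1.66 more than Per1 and by 1.92 more than Per2 on its brighter probe set (adjusted p = 3.69e-05 for each). With the mean of the probe sets of each gene, these differences were -0.63 for Per1 minus Per3 (adjusted p = 3.69e-05) and -0.07 for Per2 minus Per3 (adjusted p = 0.70). The Per3 mean includes 1388239_at, which lay near the lower quartile and changed by 0.08 log2 units over all dosed arrays. The smaller differences therefore do not show that Per2 and Per3 rose equally. Per1 rose by 0.26 more than that probe set of Per2 (adjusted p = 0.00468), but 1.39 less than the other Per2 probe set (log2 difference -1.39, adjusted p = 0.000221). The Per2 and Per3 rises no longer differed beyond the threshold with that probe set (adjusted p = 0.381), so statements on Per2 hold for a probe set and not for the gene.

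Among the dosed arrays some members varied with Bmal1 and some against it. Vehicle and dosed arrays form separate groups for most members, so the relation with Bmal1 was taken over dosed arrays alone, for 9 relations with 100000 permutations each. Npas2 varied with Bmal1 (Pearson r = 0.818, permutation adjusted p = 0.00180; Spearman rho = 0.746, adjusted p = 0.00855), and Cry1 against it (r = -0.802, adjusted p = 0.00180; rho = -0.807, adjusted p = 0.00477). Cry1 was lower in dosed than in vehicle arrays, like Bmal1, yet higher in those dosed arrays where Bmal1 was lowest. Per2 on its brighter probe set varied against Bmal1 (r = -0.658, adjusted p = 0.0246; rho = -0.664, adjusted p = 0.0253). Nr1d1 had r = 0.596 (adjusted p = 0.0451) and rho = 0.564 (adjusted p = 0.0714), a positive sign, although it rose where Bmal1 fell in the contrast with the vehicle. The other 5 members did not pass, with r between -0.415 for Per1 and 0.459 for Clock. With the arrays rescaled in 2 other ways, Npas2 and Cry1 passed in both. Nr1d1 and Per2 each failed in 1 of them, and Clock passed in 1.

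The 2 arrays farthest from the median of Bmal1 were replicate 3 at 258.1 mg/kg and replicate 2 at 1032.5 mg/kg. Without them the relation held for Npas2 (r = 0.780, permutation adjusted p = 0.00729) and Cry1 (r = -0.722, adjusted p = 0.0251), and not for Per2 (r = -0.429, adjusted p = 0.327) or Nr1d1 (r = 0.371, adjusted p = 0.375), which rest on those arrays. With each dose mean subtracted, the r was 0.646 for Npas2, -0.642 for Cry1 and -0.703 for Per1, and none of the 9 relations passed after adjustment by an exact permutation within doses (adjusted p = 0.137 at the lowest). Within the 6 vehicle arrays the r with Bmal1 ran from -0.774 for Npas2 to 0.821 for Nr1d2.

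**Figure D4:**
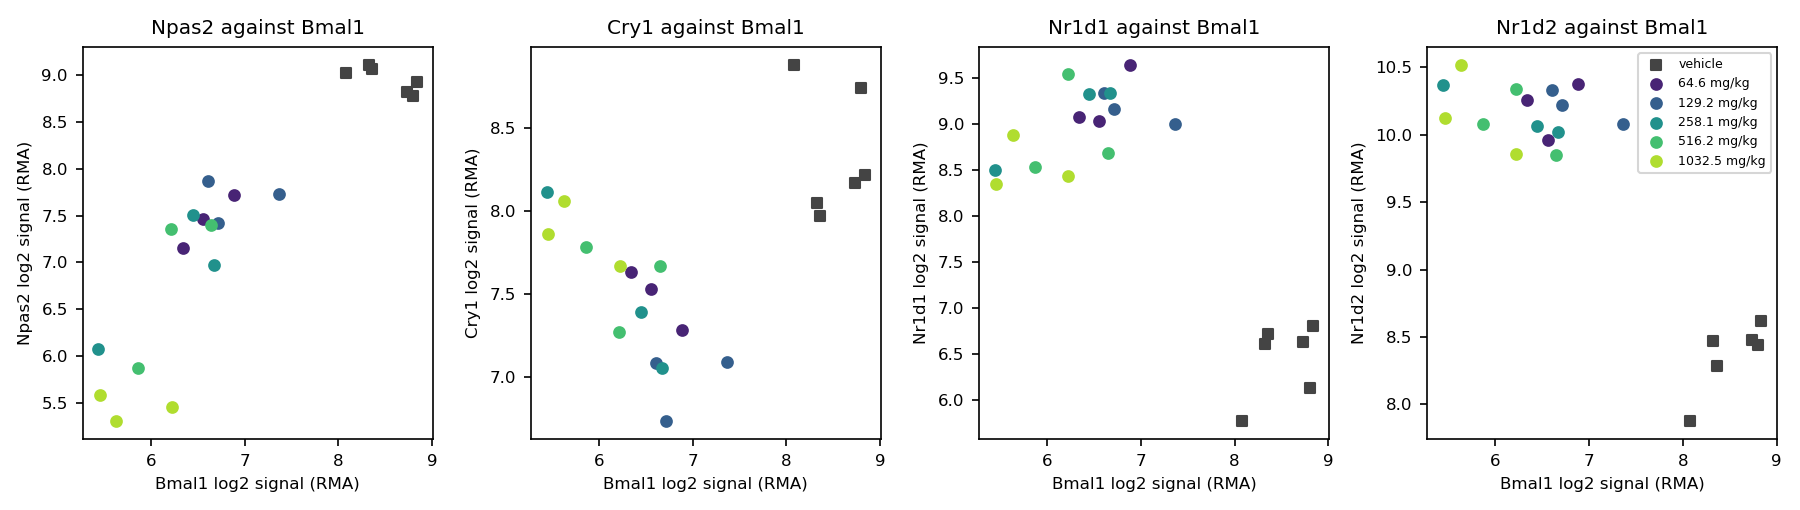
Log2 signals of Npas2, Cry1, Nr1d1 and Nr1d2 (vertical axes) against that of Bmal1 (horizontal axis), 1 point per array, with vehicle arrays as grey squares and dosed arrays coloured by dose. In dosed arrays Npas2 rises with Bmal1 (r = 0.818) and Cry1 falls with it (r = -0.802), and vehicle arrays lie apart from the dosed ones.

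Over all 21 arrays the genes most like Bmal1 by Pearson correlation were Slc16a1 (r = 0.957), Plin2, Tubb2a, Rnf8 and Dlc1, and the most opposed were Tef (r = -0.960), Usp2, Dbp, Klf16 and Hsd17b2. Most like Nr1d1 were Nr1d2 (r = 0.956), Hsd17b2, Dbp, Per3 and Ugp2, and most opposed Nfil3 (r = -0.889), Lgalsl, Etv6, Cry1 and C2h4orf46. These values describe likeness over arrays that share the step from vehicle to dosed. Over the 15 dosed arrays the genes most like Bmal1 were Psen2 (r = 0.876), Wdfy2, Itpr2, Tmem252 and Slc16a1, and the most opposed Cobll1 (r = -0.916), Nampt, Gcnt2, Hlf and Usp2, so that Slc16a1 and Usp2 stand in both sets. Those most like Nr1d1 over the 15 arrays were Wbp1l (r = 0.907), Tmem140, Fgd2, Nsmaf and Arhgef10l, and the most opposed were Prkci (r = -0.853), Dnaja2, Vstm2a, Farsb and Eif2b3.

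Of 26 genes that modify the clock proteins or compete at their elements 21 were measured, and none was called by limma at 64.6, 129.2 or 1032.5 mg/kg or over all dosed arrays. At an unadjusted p under 0.05 there were 1, 1, 4 and 3 of them in these comparisons. Single genes were called at 258.1 mg/kg (Bhlhe41, an E-box repressor, 1.61-fold higher, adjusted p = 0.0237) and at 516.2 mg/kg (Timeless, 1.65-fold higher, adjusted p = 0.0442). Of all probe sets, 1.36% were called higher at 258.1 mg/kg and 4.02% at 516.2 mg/kg. At 1032.5 mg/kg 3.30% were called higher and 2.85% lower. The median log2 change of the 21 measured genes at 1032.5 mg/kg was 0.08, beside -0.01 for all probe sets. Nampt, the enzyme of NAD salvage whose gene is an E-box target, changed by 1.26 log2 units at 1032.5 mg/kg (adjusted p = 0.0674). It had a rising slope over the doses (0.36 log2 units per step, SE 0.07, adjusted p = 0.0117), as did Cipc, a CLOCK-interacting repressor (0.13 per step, adjusted p = 0.0169). A rising slope was called for 1.46% of all probe sets. Rora, which activates Bmal1 at the RORE that REV-ERB alpha also binds, changed by -0.17 log2 units at 1032.5 mg/kg (adjusted p = 0.818). The casein kinase genes that time PER turnover, Csnk1d (log2 change -0.08, adjusted p = 0.62) and Csnk1e (log2 change 0.02, adjusted p = 0.955), did not pass.

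Of the genes that the clock drives in liver, 15 were measured, and the D-box factors Dbp, Tef and Nfil3 changed at every dose. Of the 15, 3 were called higher and 1 lower at 64.6 mg/kg, and 8 higher and 2 lower at 1032.5 mg/kg, where 0.135% and 0.113% of all probe sets were called at the lowest dose and 3.30% and 2.85% at the highest, with a median log2 change of 0.37 and 1.13. Dbp, a D-box activator switched on directly by BMAL1 and CLOCK, rose 21.5-fold at 64.6 mg/kg (log2 change 4.43, SE 0.23, limma adjusted p = 9.19e-10) and 27.6-fold at 1032.5 mg/kg (log2 change 4.78, SE 0.23, adjusted p = 2.11e-10). Nfil3, the repressor that competes with DBP at D-boxes and is itself repressed by REV-ERB, was 3.53-fold lower at 64.6 mg/kg and 3.76-fold lower at 1032.5 mg/kg (log2 change -1.91, SE 0.17, adjusted p = 6.60e-07). The D-box activators Tef and Hlf, related to DBP, rose 2.71-fold and 2.20-fold at 1032.5 mg/kg. Noct, a rhythmic phosphatase of NADP, rose 6.85-fold, and Usp2, a deubiquitinase, 6.71-fold at that dose. Alas1, which starts heme synthesis, rose 3.66-fold, whereas Insig2, a brake on SREBP processing, was 2.88-fold lower. Por, the reductase that feeds electrons to cytochromes P450, rose 2.73-fold, and Wee1, a mitotic kinase, 1.91-fold. Alas1 and Por are also known targets of the drug-sensing receptors CAR and PXR. Cyp7a1, the rate-limiting enzyme of bile acid synthesis, passed at no dose, with log2 changes from 0.23 at 1032.5 mg/kg (adjusted p = 0.844) to 1.53 at 129.2 mg/kg (adjusted p = 0.147), and 0.82 over all dosed arrays (SE 0.27, adjusted p = 0.0865).

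**Figure D5:**
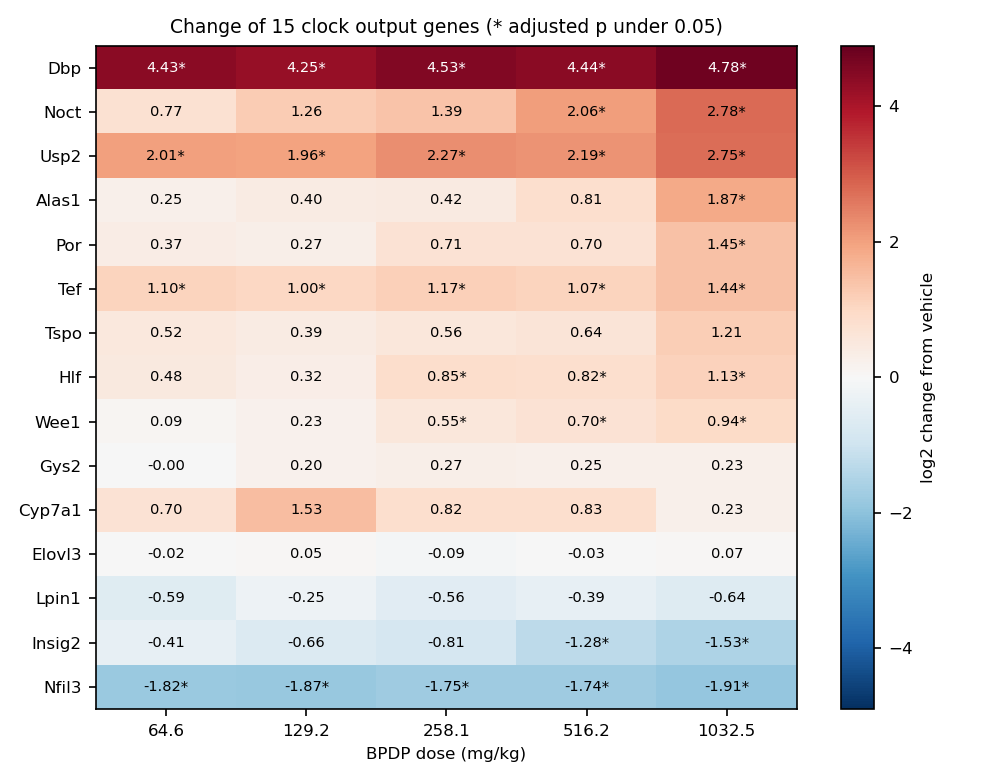
Log2 change from vehicle (colour and printed value) of 15 clock output genes (rows) at each BPDP dose in mg/kg (columns), from the limma fit over 21 arrays, with an asterisk where the adjusted p is under 0.05. Dbp, Usp2 and Tef are called higher and Nfil3 lower at all 5 doses.

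Genes that carry signals into the liver clock were also listed. Of 7 measured genes of glucocorticoid signalling, Klf9 alone was called at 1032.5 mg/kg (1.79-fold higher, limma adjusted p = 0.00675), and Fkbp5 (log2 change -0.07, adjusted p = 0.965) and Tsc22d3 (0.21, adjusted p = 0.550) did not pass. At 64.6 mg/kg 0 of the 7 were called, and at 129.2, 258.1 and 516.2 mg/kg 1 was called higher. An unadjusted p under 0.05 was reached by 3 at 64.6, 2 at 129.2, 1 at 258.1, 1 at 516.2 and 2 at 1032.5 mg/kg. The median log2 change of the 7 was 0.36 at 64.6 and 0.08 at 1032.5 mg/kg, beside 0.01 and -0.01 for all probe sets. Of 7 feeding and fasting genes, Igfbp1 (4.36-fold lower, adjusted p = 0.0236) and Pdk4 (2.10-fold lower, adjusted p = 0.0230), which rise in fasting, were called lower at 1032.5 mg/kg and none higher. At 64.6 mg/kg Angptl4, another fasting gene, was the gene of that list called (4.32-fold lower, adjusted p = 0.00199). Of the 7, 1 was called lower at 129.2, 2 at 258.1 and 2 at 516.2 mg/kg, beside 0.126%, 0.992% and 2.0% of all probe sets. At an unadjusted p under 0.05 there were 3, 4, 3, 4 and 3 of them from the lowest to the highest dose. Their median log2 changes in that order were -0.35, -0.28, -0.44, -0.48 and -0.34. A falling slope over the doses was called for 1, beside 0.818% of all probe sets. Of all probe sets, 0.113% were called lower at 64.6 mg/kg, and 3.30% were called higher and 2.85% lower at 1032.5 mg/kg. None of 4 measured temperature-sensitive genes was called by limma over all dosed arrays or at any dose, and at an unadjusted p under 0.05 there were 2 at 129.2 mg/kg, 1 at 258.1 mg/kg, 0 at the other doses and 1 over all dosed arrays. The part of these genes in the clock gene changes was not tested.

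In bulk liver, fewer cells of a type and less RNA per cell cannot be told apart. Of the hepatocyte markers 1 of 9 was called at 1032.5 mg/kg (Ahsg, 1.14-fold lower). Of the stellate cell markers 4 of 9 were lower at 1032.5 mg/kg, 7 at 516.2, 3 at 258.1 and 0 at 129.2 and 64.6 mg/kg, a slope over the doses was called for 2, and their summed signal ran from 11.94 to 12.54 in vehicle and from 11.55 to 11.77 in top dose arrays on the log2 scale. Of the macrophage markers 2 of 8 were lower at 1032.5 mg/kg (summed signal 13.07 to 13.66 in vehicle, 12.63 to 12.99 at the top dose), of the lymphocyte markers 2 of 9 (9.27 to 9.84, and 9.09 to 9.30), and of the red cell genes 2 of 3 (12.40 to 13.77, and 10.59 to 11.83). An unadjusted p under 0.05 was reached by 6 of the 8 macrophage markers at 516.2 mg/kg and by 7 at 1032.5 mg/kg. At 1032.5 mg/kg it was also reached by 5 lymphocyte, 4 hepatocyte, 4 stellate and 2 red cell genes. The median log2 change at that dose was -0.61 for the macrophage, -0.31 for the lymphocyte and -0.09 for the hepatocyte markers. Of the bile duct markers 1 of 5, Epcam, was higher at 1032.5 mg/kg, and no other had an unadjusted p under 0.05. Their summed signal ran from 9.45 to 10.02 in vehicle and from 10.09 to 10.38 in top dose arrays. The mean of their log2 signals did overlap, at 6.33 to 6.73 and 6.52 to 6.65, and their median log2 change was -0.06. No endothelial (0 of 6) or neutrophil (0 of 5) marker was called at 1032.5 mg/kg, with 2 of each at an unadjusted p under 0.05. The summed neutrophil signal ran from 7.70 to 9.82 in vehicle arrays, a wider range than the 7.53 to 7.91 of the 15 dosed arrays, and the endothelial one from 11.53 to 12.46 in vehicle and from 11.77 to 11.99 in top dose arrays. At 64.6 mg/kg, where 6 clock genes were called, limma called none of the markers of these 8 cell types, and an unadjusted p under 0.05 was reached by 3 stellate, 3 lymphocyte and 1 neutrophil marker. Of all probe sets, only 0.135% were called higher and 0.113% lower at that dose. Below the lower quartile lay 1 lymphocyte and 2 neutrophil markers in every group. The part of other cell types in the clock gene changes was not tested. The 5′ to 3′ difference of the control probe sets, a measure of RNA integrity with values nearer 0 in less degraded RNA, ran from -2.40 to -1.68 in vehicle arrays and from -3.10 to -1.28 in dosed ones.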

How the data were processed

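Liver RNA was measured on an Affymetrix rat expression array. The authors deposited a log2 signal for each probe set on each array, which they computed with RMA according to the submitters' processing notes. Which RMA software they ran is not given in the sources used here. RMA scales all arrays to 1 distribution, so a shift common to all genes cannot be seen. Values were used as deposited. Depth does not apply to arrays, and the number of arrays limits precision.

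Of the deposited rows 57 array controls were left out. Symbols come from the platform annotation, updated through RefSeq (GRCr8). Probe sets naming 1 gene numbered 20826, several 436 and none 9780.

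limma 3.58.1 in R 4.3.3 (lmFit, eBayes) was fitted over all 21 arrays with a coefficient per dose group and no covariate, tested on simulated data first. Two-sided p-values were adjusted within each comparison over 31042 probe sets (Benjamini-Hochberg). SE are limma's moderated errors. "Alternatives" change 1 choice each: scaling, filter, variance model, array weights, an RNA integrity covariate, a replicate block, probe set averaging, the groups in the fit, and leaving out each array. Permutations and motif searches used Python 3.11.15, NumPy 2.4.6 and SciPy 1.17.1.

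The members, the gene lists and the tests were chosen with earlier results of these data known. Named were all members, the listed outputs and inputs called at 1032.5 mg/kg by size, Dbp, Nfil3 and Rora whatever their values, and the 5 genes most and least like Bmal1 and Nr1d1. Bhlhe41, Timeless, Nampt, Cipc, Csnk1d, Csnk1e, Cyp7a1, Fkbp5, Tsc22d3, Angptl4, Ahsg and Epcam were described after their values were seen.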

Additional observations from a re-analysis of the deposited data

Results flagged for a closer look

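Among the 6 vehicle arrays, 2 of the 18 clock probe sets had an array far from the others by Dixon's test at the 95% level, which by chance flags about 1 group in 20. For Clock on probe set 1390199_at, vehicle replicate 2 was the highest, at 9.36 against 9.25 for the next array, a gap of 0.668 of the range. Without it the change over all dosed arrays was no longer called (limma adjusted p = 0.0663). For Per3 on probe set 1378745_at, vehicle replicate 2 was the lowest, at 4.83 against 5.26, a gap of 0.688 of the range. The Per3 calls held without it. The dosed groups of 3 arrays were too small for this test.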

How the results depend on the processing

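Of 4098 alternative values for the 18 probe sets, 3970 kept their side of the threshold, 95 lost a call and 33 gained one. No called value turned sign, and 84 values called under neither setting did. Among the paralogue differences, Per1 minus Per2 over all dosed arrays turned sign, at -0.56 with the mean of the probe sets and -1.39 with the other Per2 probe set (chosen after seeing the data). With 1 array left out, the genes called numbered 4 to 7 at 64.6, 5 to 7 at 129.2, 6 to 8 at 258.1, 5 to 7 at 516.2 and 6 to 9 at 1032.5 mg/kg, 8 to 10 over all dosed arrays, 1 to 2 for the slope, 1 to 1 for the top against the lowest dose, and 0 to 1 between neighbouring doses. All other alternatives left these counts within 1.5 times. Same-numbered replicates share only a number (r over 0.1 in 13 of 45 pairs, from -0.28 to 0.39), and with the replicate block the counts were 6, 6, 8, 7 and 8 genes from the lowest to the highest dose, as without it. The calls lost under some alternative were of Clock, Per1, Per2, Cry1 and Cry2, and of Npas2 at 64.6 and 129.2 mg/kg, while those of Bmal1, Nr1d1, Nr1d2 and Per3 against the vehicle held in all. Median log2 changes of all probe sets moved by under 0.1 with scaling.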
